A study of Mus musculus with 2 samples.

Results

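The widest stretches of open chromatin that both libraries of newborn mouse heart had in common were described. A hotspot is a region of raised DNase I cleavage called from 1 library, and wide hotspots were those of at least 1200 bp on chromosomes 1 to 19. A wide hotspot of one library that overlapped a wide hotspot of the other by at least 1 bp made a shared region, and the width and the overlap are what chose these regions. There were 1357 of them, made of 1365 of 148730 hotspots on these chromosomes in replicate 1 and 1364 of 129433 in replicate 2. Open chromatin came from DNase-seq of hearts from strain B6NCrl mice at postnatal day 0, in 1 group of 2 libraries with no other age, tissue or treatment. In this assay nuclei are treated with DNase I, which cuts accessible DNA first, and the ends it releases are sequenced. The labels number the libraries as biological replicates 1 and 2 with separate biosamples, but give both the same donor label and record no sex. An SD below is thus the spread of these samples alone, possibly a technical one, and no group comparison could be tested.

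In mammalian genomes an active promoter is a short nucleosome-free stretch just upstream of the transcription start site (TSS), flanked by ordered nucleosomes. Many promoters lie in CpG islands, where the CpG dinucleotide has escaped the loss seen in the rest of the genome, and islands can stay accessible over a longer stretch than other promoters. Enhancers and promoters of genes that respond quickly to growth signals or stress, such as those for immediate-early transcription factors, are often open over several neighbouring sites.

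The following sequences are 150 bp peaks, the highest peak that both libraries shared within a wide region. The first 6 are from promoters and show how differently CpG-rich promoters are built, and the last 4 are from regions poor in CpG or far from a coding gene. All are on the + strand of the reference genome GRCm38.p6 (mm10), and capitals mark matches to the motifs spelled out further on, as the reverse complement where the match is on the other strand.
Jun: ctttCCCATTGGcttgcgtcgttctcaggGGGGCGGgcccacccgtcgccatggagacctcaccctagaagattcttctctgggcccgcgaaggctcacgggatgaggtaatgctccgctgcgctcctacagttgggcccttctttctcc
Pim1: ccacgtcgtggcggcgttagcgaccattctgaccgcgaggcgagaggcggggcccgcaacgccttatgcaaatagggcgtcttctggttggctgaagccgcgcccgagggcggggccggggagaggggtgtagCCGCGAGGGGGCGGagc
Srsf7: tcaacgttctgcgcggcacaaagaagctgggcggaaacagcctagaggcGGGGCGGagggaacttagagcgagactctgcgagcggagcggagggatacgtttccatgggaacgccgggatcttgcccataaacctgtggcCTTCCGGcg
Dnajb9: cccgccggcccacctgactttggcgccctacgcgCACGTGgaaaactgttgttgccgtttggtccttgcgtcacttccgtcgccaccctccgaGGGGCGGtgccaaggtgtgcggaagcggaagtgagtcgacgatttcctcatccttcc
Atp5j: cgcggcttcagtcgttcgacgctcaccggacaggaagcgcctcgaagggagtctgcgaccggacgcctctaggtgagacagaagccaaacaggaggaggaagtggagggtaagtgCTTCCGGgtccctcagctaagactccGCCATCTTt
Ccn1: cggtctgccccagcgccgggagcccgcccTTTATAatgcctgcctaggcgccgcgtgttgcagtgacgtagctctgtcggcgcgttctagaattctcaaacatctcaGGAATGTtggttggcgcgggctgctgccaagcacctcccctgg
Cryab: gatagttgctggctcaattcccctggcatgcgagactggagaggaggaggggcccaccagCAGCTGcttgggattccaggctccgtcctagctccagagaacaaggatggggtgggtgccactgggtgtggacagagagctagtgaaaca
Gm11146: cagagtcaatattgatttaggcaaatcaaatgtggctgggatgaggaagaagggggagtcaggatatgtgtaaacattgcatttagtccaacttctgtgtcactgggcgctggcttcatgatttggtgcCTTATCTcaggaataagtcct
Nrp1: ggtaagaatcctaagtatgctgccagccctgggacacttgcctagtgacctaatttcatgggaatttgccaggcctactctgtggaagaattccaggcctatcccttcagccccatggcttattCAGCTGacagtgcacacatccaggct
Mroh2a: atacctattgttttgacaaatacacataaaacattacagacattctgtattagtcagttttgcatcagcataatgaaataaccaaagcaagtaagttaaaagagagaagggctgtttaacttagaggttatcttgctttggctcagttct
The Jun peak lay at chr4:95052276-95052425 and holds a CCAAT box and a GC box. The Pim1 peak (chr17:29490456-29490605) holds a CTCF motif and a GC box that share bases in 1 run of capitals. The Srsf7 peak (chr17:80207376-80207525) holds a GC box and an ETS motif. The Dnajb9 peak (chr12:44210136-44210285) holds an E-box and a GC box, and the Atp5j peak (chr16:84834916-84835065) an ETS and a YY1 motif. The Srsf7 and Atp5j peaks lay -593.5 and 512.5 bp from the coding TSS nearest to the region's centre. Their regions also held TSSs of Ttc39d and Gabpa, so these peaks cannot be assigned to either gene. The Ccn1 peak (chr3:145649976-145650125) holds a TATA box and a TEAD motif. The Cryab peak (chr9:50752876-50753025) and the peak at -139534 bp from the Nrp1 TSS (chr8:128219676-128219825) hold the E-box CAGCTG. The peak nearest to Gm11146 (chr16:77329936-77330085) holds a GATA motif, and the peak near Mroh2a (chr1:88219556-88219705) holds none of the motifs searched.

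Most listed markers of heart muscle were open in both libraries, as were most of those of endothelium, fibroblasts and smooth muscle. Of 28 genes for sarcomere and Z-disc proteins, the contractile apparatus of heart muscle, 24 had a hotspot over a TSS in each library, and of 28 cardiac transcription factor genes 23 had one in replicate 1 and 24 in replicate 2. Of 25 endothelial genes 25 and 21 had one, and of 23 fibroblast and matrix genes 21 in each library. Of 15 smooth muscle and pericyte genes 13 and 12 had one, but of 11 epicardial genes only 5 and 6. Of 15 neuron genes 7 had one in each library, of 14 hepatocyte genes 3 in each, and of 13 macrophage genes 0 and 1. Among all 20698 protein-coding genes the shares were 61.1% and 60.7%. In bulk tissue, fewer cells of a type and less open chromatin per cell cannot be told apart. Sequencing depth is unknown, since neither deposited list holds read totals. In the deposited hotspot lists, 2040 hotspots of replicate 1 (1.37%) and 2411 of replicate 2 (1.86%) were at least 1200 bp wide, so the library with fewer hotspots had more wide ones. The shared regions took in 66.9% of the wide hotspots of replicate 1 and 56.6% of those of replicate 2.

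The median width of the regions was 1493 bp in replicate 1 and 1562 bp in replicate 2 (mean 1527.5 ± 48.8 bp, SD, n = 2), where the median over all hotspots was 223 and 230 bp. Width is what chose the regions, so this is a description. In 12 regions at least 1 library held more than 1 wide hotspot, which was so for 8 regions in replicate 1 and 7 in replicate 2, and the widest of them was taken as the region's width in that library. The upper quartile was 1759 and 1853 bp, and the widest hotspots reached 4418 bp at Jun in replicate 1 and 5376 bp at Myc in replicate 2. In both libraries 99 regions were at least 2000 bp wide, and 10 were at least 3000 bp wide. Just inside the threshold, the regions nearest Pcmtd1, Ercc4 and Arhgap35 had their narrower hotspot at 1201 bp. Just outside it, hotspot pairs at Cdc73, Cse1l and Skil had theirs at 1199 bp. The threshold cuts a continuous range, with 494 overlapping pairs in the 100 bp below it and 362 regions in the 100 bp above it.

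Within these regions, which were chosen by overlap, the hotspots of both libraries spanned mostly the same bases. The shared length was a median of 89.6% of the length spanned in either library, with quartiles of 80.0% and 94.9%. Gaps between split hotspots of a region count as spanned. The choice by overlap and by width in both libraries favours high values here and similar widths, so these are descriptions. Widths differed by at most 1.25 times in 1077 regions (79.4%, Wilson 95% interval 77.1 to 81.4%) and by over 2 times in 12. Intervals of this kind cover counting error only. Replicate 2 was wider in 817 regions, replicate 1 in 536, and in 4 both were equal. Across the 1357 regions the widths of the libraries had a Spearman correlation of 0.54, given as a description, since both widths had to pass the same threshold and may come from the same donor.

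**Figure D1:**
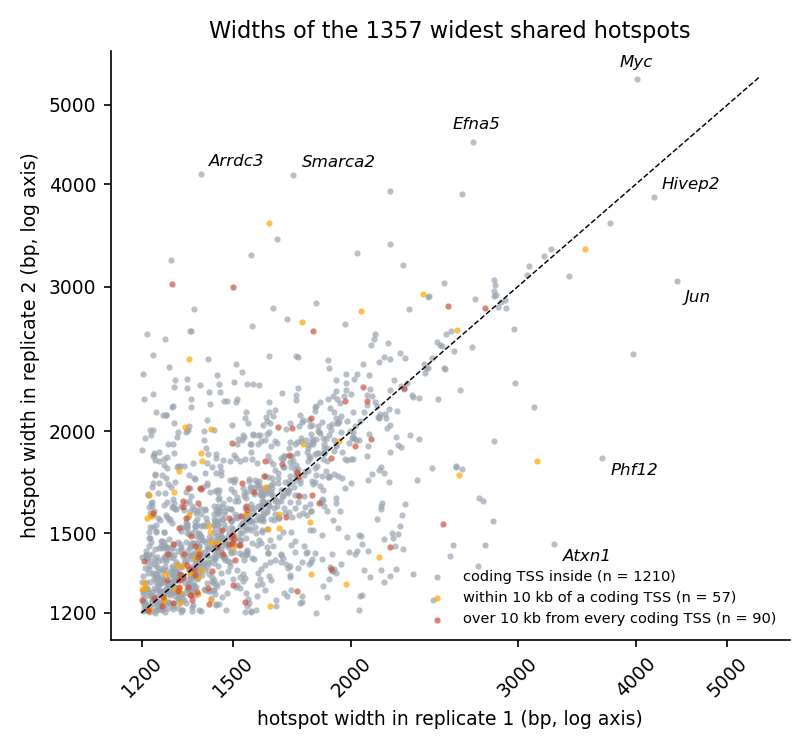
Width of the hotspot in replicate 1 (x axis, bp, log scale) and replicate 2 (y axis, bp, log scale) for each of the 1357 shared regions, coloured by distance from the nearest coding TSS, with equal widths on the dashed line. Most points lie near the line, and a few genes such as Arrdc3 (1387 and 4113 bp) and Atxn1 (3280 and 1455 bp) lie far from it.

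The 12 widest regions lay at or near genes of several kinds, and those that encode transcription factors or nuclear receptors are given first. At Myc, which encodes a factor that drives cell growth, a hotspot of 4008 bp in replicate 1 and 5376 bp in replicate 2 lay on chromosome 15 from 61983146 to 61988521. Hivep2, which encodes a large zinc finger factor, had 4178 and 3859 bp, and Jun, which encodes a subunit of the AP-1 factor, had 4418 and 3049 bp. Bhlhe40 had 2621 and 3889 bp and Nfil3 3397 and 3091 bp, and both encode repressors linked to the circadian clock. Nr3c1, which encodes the glucocorticoid receptor, had 3086 and 3183 bp. The difference between libraries was small for Nr3c1 (SD of 68.6 bp around a mean of 3134.5 bp) and large for Jun and Myc (SD of 968 and 967 bp).

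The other regions among the 12 widest belonged to genes of other kinds. Ppp2r3d, which encodes a regulatory subunit of protein phosphatase 2A, had 3755 and 3588 bp, and Efna5, which encodes the membrane-bound ligand ephrin A5, had 2692 and 4508 bp. Mex3c, for an RNA-binding ubiquitin ligase, had 3253 and 3332 bp. Ing1, for a histone-reading subunit of a deacetylase complex, had 3971 and 2482 bp. One region of 3201 and 3268 bp held the TSSs of 2 genes, Mbd6 and Ddit3, the second of which encodes the stress factor CHOP, and it cannot be assigned to either. Only 1 of the 12 held no coding TSS: it spanned 3534 and 3332 bp on chromosome 11, 4629 bp upstream of the nearest coding TSS of Tlcd2. It held the TSS of Mir22hg, the host transcript of a microRNA, and that of a Tlcd2 transcript not classed as protein-coding.

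Each of these regions held several of the peaks that the authors called, all of a fixed 150 bp. The peak value in the deposited lists is a whole number of at most 150 with no stated normalization, and it is used here to rank sites within a library. The Myc hotspot of replicate 1 ran from -1826 to 2181 bp around the TSS and held peaks with values of 72, 110, 98, 45, 98 and 52 in the order of transcription. A further peak with a value of 102, at -2466 to -2317 bp, lay in a separate hotspot of that library from -2649 to -1973 bp. In replicate 2 a single hotspot ran from -2776 to 2599 bp and took in the matching peak, whose value was 85. That hotspot held 12 peaks, against 6 in the hotspot of replicate 1. Peaks at -2046, -1126, 134 and 2014 bp, with values of 26, 46, 39 and 22, were listed in replicate 2 alone, so at Myc the libraries differed both in where the hotspot was broken and in which of the lower peaks were called.

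At Jun it was replicate 2 whose hotspot was broken. Replicate 1 had 1 hotspot of 4418 bp, from -1894 to 2523 bp, with 7 peaks, the highest of which (value 130) lay at -203 to -54 bp. Replicate 2 had a hotspot of 3049 bp from -1919 to 1129 bp and another of 1233 bp from 1262 to 2494 bp, with the highest peak at the same position and a value of 125. The peaks at -1203 to -1054 bp had values of 114 and 99. Those at 2017 to 2166 bp, inside the transcribed part, had values of 81 and 73. At Nfil3 the highest peak was not at the TSS: a peak at 1548 to 1697 bp downstream had values of 83 and 84, and the peak at the TSS had 82 in both libraries. Bhlhe40 had its highest value (120) at -253 to -104 bp in replicate 1 and a value of 109 at -233 to -84 bp in replicate 2, where a peak at -1153 to -1004 bp had 108. The region upstream of the coding TSS of Tlcd2 had its highest peak at -6743 to -6594 bp in replicate 1, with a value of 130. In replicate 2 it was at -6783 to -6634 bp, with 127.

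**Figure D2:**
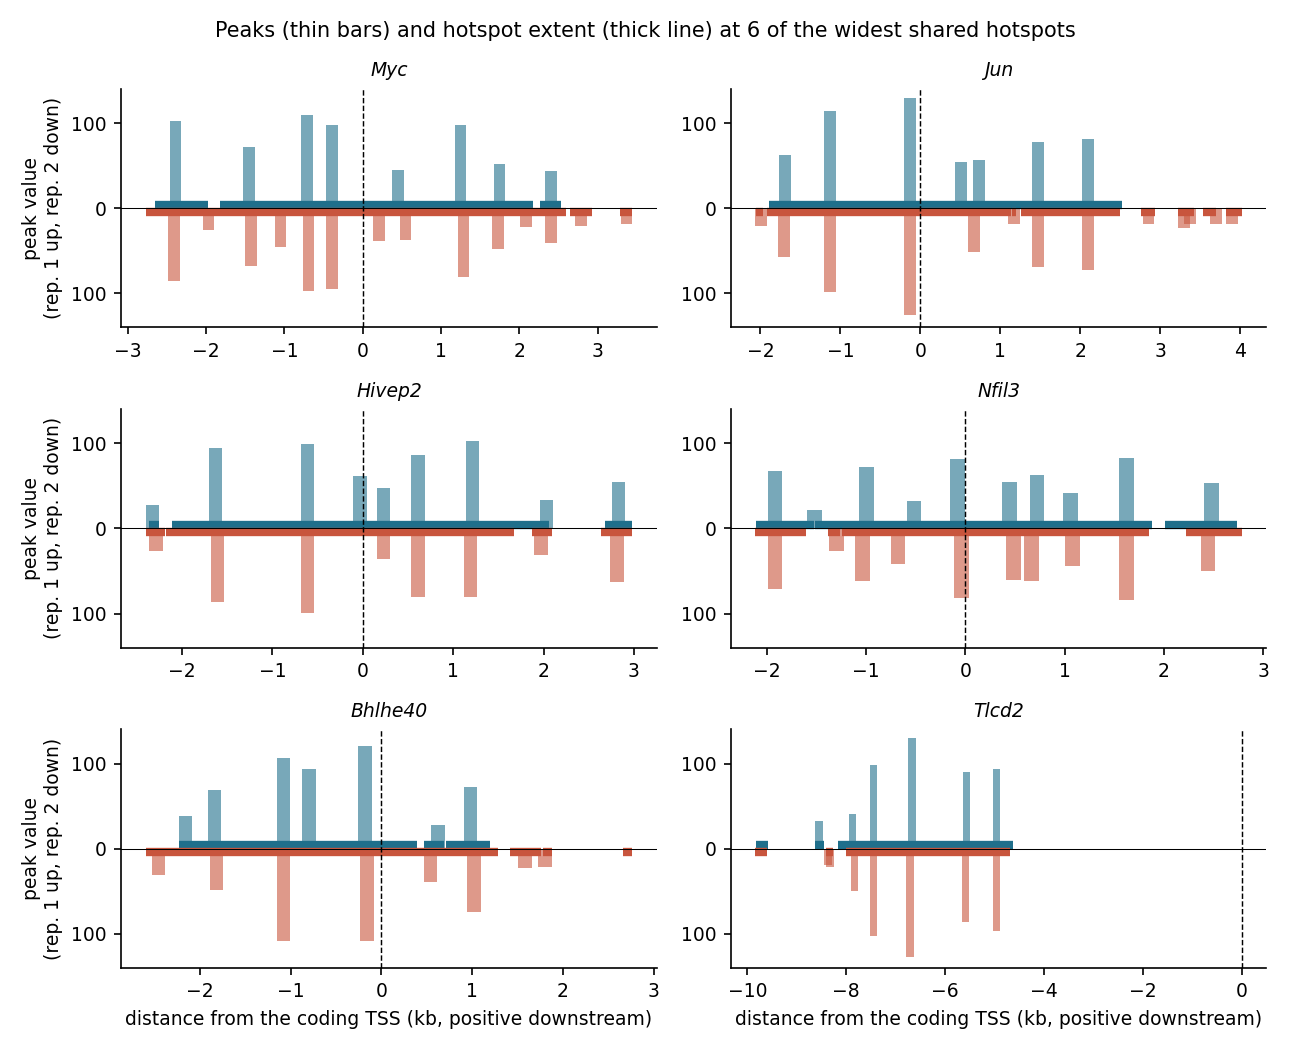
Peaks (thin bars, height is the deposited peak value) and hotspots (thick lines) at 6 of the widest regions against distance from the coding TSS in kb, with replicate 1 upwards and replicate 2 downwards. Most of the higher peaks recur at similar distances in both libraries, with exceptions such as the Bhlhe40 peak at -873 bp (value 94) in replicate 1 alone, while breaks between hotspots fall at different places, upstream of Myc in replicate 1 and downstream of the Jun TSS in replicate 2.

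Over all regions the median number of peaks was 3 in each library, with a mean of 2.98 in replicate 1 and 3.09 in replicate 2. The range was 1 to 14 and 1 to 12 peaks, and all hotspots had a mean of 1.05 and 1.07. The highest count in replicate 1 was 14 peaks, at Marcks, counted over a span with 2 wide hotspots of 2216 and 3123 bp. Marcks encodes an actin-binding substrate of protein kinase C and was named for this value after it was seen. Wider regions held more peaks, with a Spearman correlation of 0.57 and 0.62 across the 1357 regions, which follows in part from their length. Peaks took up a median of 27.3% and 27.1% of the hotspot length, a share that the fixed peak length largely sets. The highest peak of a region had a median value of 107 and 103, against 36 and 34 over all hotspots with a peak. Part of this gap follows from taking the highest of more peaks. Over single peaks the medians were 73 and 67 in the regions, against 36 and 35 for all peaks. All regions in replicate 1 and 99.9% in replicate 2 carried the highest listed −log10 q-value of 100, which 34.4% and 31.7% of all hotspots had.

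Most regions lay over the start of a coding gene. A protein-coding TSS lay inside 1210 regions (89.2%, Wilson 95% interval 87.4 to 90.7%), where 9.04% of all hotspots in replicate 1 and 10.2% in replicate 2 held one. For 1192 of the regions a TSS lay inside the hotspots of both libraries. A wider region has more room for a TSS, so windows of equal length were also compared. A coding TSS lay in the central 1200 bp of 86.3% of the regions in replicate 1 and 86.4% in replicate 2, against 13.7% and 15.1% of all hotspots. Only 90 regions (6.63%) were over 10 kb from every coding TSS, where 62.6% and 61.2% of all hotspots were. On average 35.0% of a region's length was exon, 37.9% intron and 27.1% intergenic.

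More of the regions than of narrower promoter hotspots served 2 genes. The narrower ones were 7970 hotspot pairs from 300 to 1199 bp wide with a coding TSS inside in both libraries. TSSs on both strands lay in 216 of the 1210 regions with a coding TSS (17.9%, Wilson 95% interval 15.8 to 20.1%) and in 7.21% of the narrower ones. Part of this follows from length, since a longer region reaches more TSSs. The heat shock genes Hspd1 and Hspe1, which encode the mitochondrial chaperonin and its cochaperonin, shared a region of 1366 and 1399 bp. Atp5j, for a subunit of the mitochondrial ATP synthase, and Gabpa, for an ETS factor, shared one of 1854 and 1714 bp. Cryab and Hspb2, which encode small heat shock proteins abundant in heart muscle, shared one of 1515 and 1298 bp.

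In 296 regions exactly 1 coding TSS lay inside, in both libraries, and these show how a wide hotspot is placed around its promoter. The hotspots reached a median of 718.5 and 777.5 bp upstream of the TSS and 845.5 and 872 bp downstream in replicates 1 and 2. Of the summed length, 52.2% ± 0.00632 (SD, n = 2) lay downstream. In 3647 narrower hotspots with a single TSS the reach was 286 and 296 bp upstream and 265 and 261 bp downstream, and 48.6% ± 0.166 lay downstream. The wide hotspots reached farther downstream than upstream in 59.1% and 57.1% of cases and the narrower ones in 45.8% and 44.2%. The greater reach on both sides follows from the choice by width. Whether the balance between the sides does so too was not tested, and the downstream share was 52.8% at a width threshold of 1000 bp and 51.2% at 1500 bp.

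The highest peak of these 296 regions lay upstream of the TSS in 73.3% and 72.3%, at a median of -75.5 and -76.5 bp, and within 200 bp of it in 66.2% and 68.2%. The peak centres formed a sharp summit in the 100 bp upstream of the TSS, with 36.8 and 38.2 peaks per 100 regions. They fell to 6.08 and 7.43 per 100 regions between 100 and 200 bp downstream. A broader shoulder followed, with 14.5 and 16.2 peaks per 100 regions in the next bin and 20.9 and 16.2 between 700 and 800 bp downstream. The dip just after the TSS and the downstream shoulder appeared in both libraries. Upstream, beyond the summit, densities between -800 and -200 bp stayed from 4.73 to 13.9 per 100 regions and bin, lower than in most bins of the shoulder.

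**Figure D3:**
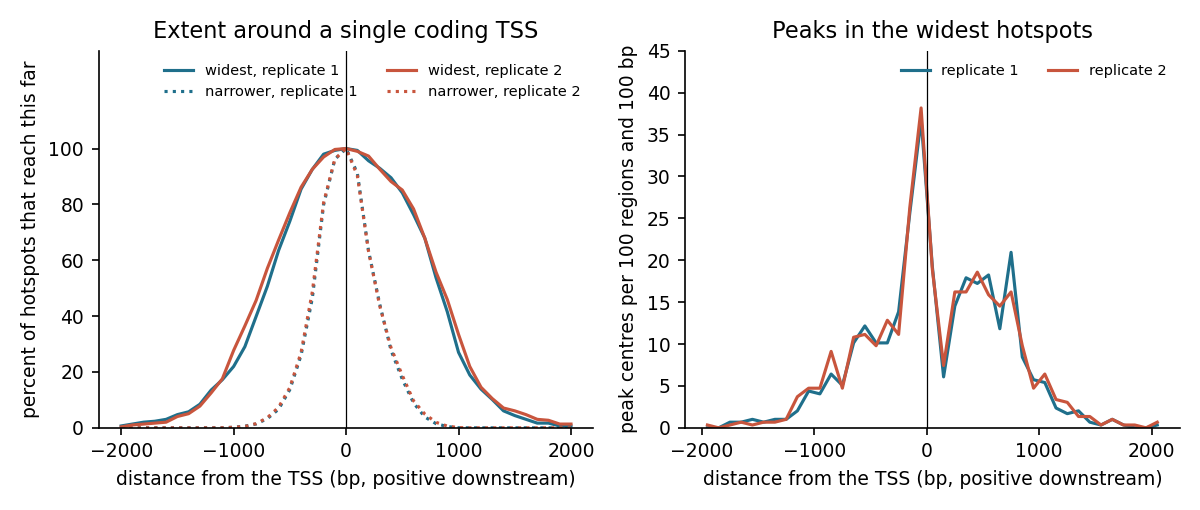
Left, percent of hotspots that reach a given distance (bp) from a single coding TSS, for the 296 widest regions (solid) and 3647 narrower hotspots (dotted). Right, peak centres per 100 regions in bins of 100 bp for the widest regions, with a summit of 36.8 and 38.2 just upstream of the TSS, a dip of 6.08 and 7.43 just downstream, and a shoulder after it in both libraries.

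Individual promoters were placed differently around their TSS. Irf2bp2, which encodes a transcriptional corepressor, had a hotspot that reached 2665 and 2715 bp upstream but only 163 and 205 bp downstream. Arid1a regions with a TSS were also mostly upstream, at 1214 and 1305 bp against 188 and 262 bp in one and 1084 and 1209 bp against 369 and 303 bp in the other. Mex3c reached 1433 and 1515 bp upstream and 1819 and 1816 bp downstream, and Nfil3 1513 and 1245 bp upstream and 1883 and 1845 bp downstream. In each of these genes both libraries gave the same side as the longer one.

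The regions were rich in CpG. The ratio of observed to expected CpG, which is 1 where the dinucleotide is as frequent as its bases predict, was 0.194 over chromosomes 1 to 19. Over the whole hotspots its median was 0.783 in replicate 1 and 0.774 in replicate 2 (mean 0.779 ± 0.00642, SD, n = 2). In the central 1200 bp, which gives all hotspots the same length, it was 0.810 and 0.807, against 0.233 and 0.239 for all hotspots. It reached 0.6, a usual limit for a CpG island, in 1179 regions (86.9%, Wilson 95% interval 85.0 to 88.6%), where 11.0% and 12.1% of all hotspots did. Among regions with a coding TSS the share was 92.1% (interval 90.5 to 93.5%), and among the narrower hotspots with a coding TSS 68.4% (interval 67.3 to 69.4%). The intervals do not overlap, but the regions are not replicates and no test was made. GC content had medians of 60.9% and 60.6%, against 50.2% and 50.3% for all hotspots. Among the regions themselves, width and the number of CpG per length were nearly unrelated, with Spearman correlations of 0.06 and 0.01 over 1357 regions.

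**Figure D4:**
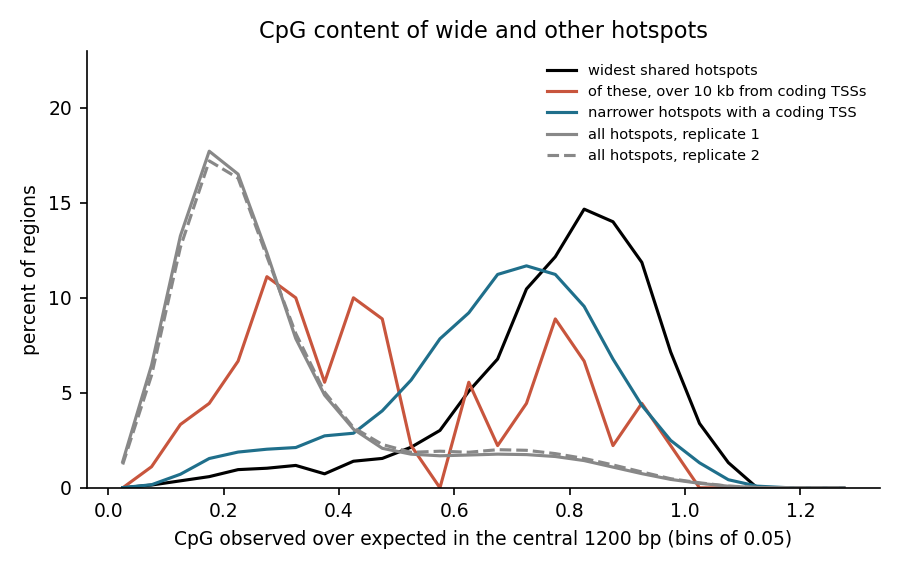
Distribution of the CpG observed over expected ratio in the central 1200 bp (x axis, bins of 0.05; y axis, percent of regions) for the widest regions, those of them over 10 kb from coding TSSs, narrower hotspots with a coding TSS, and all hotspots of each library. The widest regions lie to the right of the narrower promoter hotspots, with 86.9% and 68.4% at 0.6 or more, and the distant ones are spread over both ranges.

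The extremes of CpG content were of different kinds. Among the highest ratios were those at Nsd2 (1.07) and L3mbtl3 (1.06), which encode a histone H3 methyltransferase and a histone-binding repressor. The lowest was 0.0596, in a region 5851 bp from the nearest coding TSS of Mroh2a on chromosome 1, from 88219196 to 88221169. Its hotspots were 1974 and 1303 bp wide and its highest peaks had values of only 35 and 25. A region 157806 bp from Bambi, on chromosome 18 from 3665729 to 3667433, had 0.0663 with highest peaks of 55 and 58. The region at Phyhd1, which has 7 coding TSSs inside, had 0.114 with peaks of 85 and 74.

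Gene groups were compared by the share of their members with a TSS inside a wide shared region, which was 6.89% of all 20698 coding genes and 11.7% of the 12212 that had a hotspot over a TSS in both libraries. Splicing factors of the SR and hnRNP families, which bind pre-mRNA, stood highest with 8 of 20 genes. Heat shock and endoplasmic reticulum stress genes had 6 of 23, and immediate-early genes, which are switched on within minutes of a stimulus, had 8 of 44. As shares of the genes with a hotspot over a TSS in both libraries these were 40.0%, 28.6% and 18.6%. By the nearest coding TSS alone, which gives each region to 1 gene, the counts were 4 of 20 (20%), 3 of 23 (13.0%) and 10 of 44 (22.7%), against 6.36% of all coding genes, and immediate-early genes then stood above splicing genes. The groups are small and the shares are descriptions with no test.

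Of the immediate-early genes, Myc, Jun, Pim1, Fosl2, Klf4, Socs3, Cebpd and Dusp1 had a TSS inside a region, and Csrnp1 and Nr4a3 were the nearest gene of another. Pim1, which encodes a growth-promoting kinase, had a chain of hotspots from 29489032 to 29493200 on chromosome 17. In replicate 1 they were 2520 and 1246 bp wide and in replicate 2 2624 and 1433 bp. Other immediate-early genes had ordinary promoter hotspots. Fos, the partner of Jun in AP-1, had 669 and 829 bp, Fosb 669 and 649 bp, Junb 394 and 657 bp, and Nr4a1 533 and 585 bp. Egr1, for a zinc finger factor induced by stretch and growth factors, was wide in 1 library, with 2157 and 941 bp. Klf10 was also wide in 1 library, with 3220 and 1178 bp, and Klf6 with 803 and 2140 bp.

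Among the stress genes, Dnajb9, an endoplasmic reticulum cochaperone, had 1401 and 1603 bp, and Dnajb1, a cytosolic one, had 1252 and 1213 bp. Of the genes counted, Hspd1 and Hspe1 shared a region, and Ddit3 was counted for the region with Mbd6 that cannot be assigned to either. Hsp90b1, the chaperone of the endoplasmic reticulum, lay with Ttc41 in a region of 1720 and 1738 bp, while the cytosolic Hsp90aa1 had 717 and 655 bp. Hspa1a and Hspa1b, the inducible heat shock genes that are near-identical copies, had no hotspot listed over a TSS in either library, which is uncertain where near-identical copies share reads. Among the splicing genes, Srsf7 had 1596 and 1703 bp, Hnrnph1 1897 and 1366 bp, and Hnrnpc 1534 and 1502 bp. Srsf4 with 606 and 512 bp, Srsf5 with 499 and 522 bp and Tra2b with 541 and 473 bp stayed well below the threshold.

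Genes that define heart muscle mostly had a promoter hotspot below the width threshold. Of the 28 sarcomere and Z-disc genes, 1 had a TSS in a wide shared region, which was Cryab, and of 28 cardiac transcription factor genes and 20 genes for calcium handling and ion channels, 0 did. With 6.89% of all coding genes counted, and 11.7% of those with a hotspot over a TSS in both libraries, lists of this size would hold few such genes, and nothing is read from these counts. The median width of the widest hotspot over a TSS was 529.5 and 584 bp for the sarcomere genes and 721 and 569.5 bp for the cardiac factors, against 707 and 733 bp over all coding genes with such a hotspot. Myh6 and Myh7, the cardiac myosin heavy chains, had 808 and 831 bp and 541 and 520 bp. Nkx2-5, the homeobox factor of the heart, had 380 and 372 bp. Ttn, for the giant spring protein titin, had 496 and 622 bp. Gata4 had 533 and 1844 bp, Srf 829 and 2268 bp, Meis1 2141 and 577 bp, Tead1 1261 and 1064 bp, and Zfpm2 1291 and 1032 bp, and these 5 factors passed 1200 bp in 1 library each.

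Lists for other cell types are given for completeness, since 0 or 1 gene in a list of 11 to 25 genes is near the 6.89% of all coding genes. Endothelial genes had 0 of 25 with a TSS inside and fibroblast and matrix genes 1 of 23, which was Vim, for the filament protein vimentin, with 1469 and 1599 bp. Of 13 skeletal muscle genes 1 was counted, Mylpf, whose region of 1220 and 1215 bp also held the TSS of Tbc1d10b, so it cannot be assigned. The smooth muscle and pericyte (15 genes), epicardial (11), macrophage (13), erythroid (11), neuron (15) and hepatocyte (14) lists had 0, as had 39 Hox genes, 20 genes of hypoxia response and glycolysis and 1085 olfactory receptor genes. Of these lists, the macrophage, erythroid, hepatocyte and epicardial ones had only 0, 2, 3 and 5 genes with a hotspot over a TSS in both libraries. The neuron, Hox and olfactory receptor lists had 6, 5 and 6 such genes. For the 1085 olfactory receptor genes 0 is below the 6.89%, but few had any such hotspot, and nothing is read from it. Among signalling targets 2 of 27 had a TSS inside: Hes1, a Notch target, with 1365 and 2820 bp, and Ccn1, a matricellular target of the Hippo pathway, with 1242 and 1333 bp. The Hes1 TSS lay inside the wide hotspot of replicate 2 only.

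Lists for the respiratory chain, ribosomal proteins, fatty acid oxidation and the cell cycle lay between 3.75% and 10%, on either side of the 6.89% of all coding genes. Among genes with a hotspot over a TSS in both libraries they lay between 3.90% and 10%, below the 11.7% of all such genes. Of 90 respiratory chain genes, chosen by symbol and including assembly factors, 6 had a TSS inside, among them Uqcrc2 with 1823 and 1930 bp and Ndufv2 with 1299 and 1632 bp. Of 80 genes with ribosomal protein symbols there were 3, among them Rpl7, which shared its region of 1514 and 1928 bp with Rdh10. Fatty acid oxidation had 2 of 20, Ppara with 1717 and 1696 bp and Pdk4 with 1414 and 1445 bp, which encode a lipid-sensing nuclear receptor and a kinase that restrains glucose oxidation. Cyclins, cyclin-dependent kinases and their inhibitors had 1 of 16, Ccne2, with 1895 and 1980 bp, and a region inside the Cdk6 gene, 194 bp upstream of a coding TSS, had 1352 and 1342 bp.

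**Figure D5:**
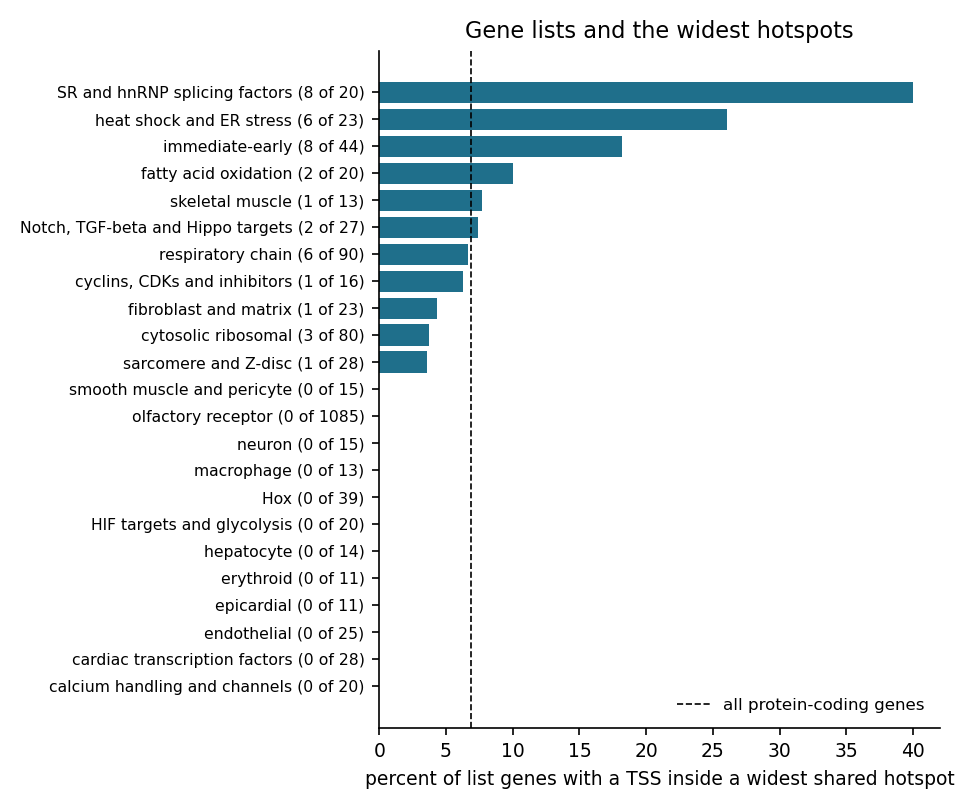
Percent of the genes of each list with a TSS inside a wide shared region (bars, counts in the labels), with the share of all protein-coding genes (6.89%) as a dashed line. Splicing, stress and immediate-early genes lie farthest above the line. Several lists have 0, among them the cardiac factors, ion channels, endothelial and Hox genes, and nothing is read from these counts.

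Some genes were the nearest to several regions. There were 1317 distinct nearest genes, or 6.36% of all coding genes, 34 of them nearest to 2 or more regions. Irf2bp2 was nearest to 5. One of these lay at its promoter, with hotspots of 2829 and 2921 bp, and the others lay 8942, 71531, 73587 and 141052 bp away. The promoter region and the one at 8942 bp had CpG ratios of 0.641 and 0.663, and the 3 farther ones 0.317, 0.226 and 0.283. The highest peaks of these 3 had values of 107 to 124 in replicate 1 and 109 to 117 in replicate 2, close to the 130 and 121 of the promoter region. Arid1a, Spen and Zfp608 were nearest to 3 regions each, and Arid1b, like many genes of other kinds, to 2. Arid1a and Arid1b, for subunits of the BAF remodelling complex, were nearest to regions 56128 and 86033 bp away. These lay in intergenic sequence with CpG ratios of 0.869 and 0.822, and the first was 1503 bp from the TSS of the lincRNA Gm12974. Spen, for a corepressor, was nearest to regions 899 and 6381 bp away, the second of which held the TSS of a pseudogene. The Zfp608 regions lay 73, 143231 and 557355 bp away. Being nearest does not assign a region to a gene.

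Of the 147 regions without a coding TSS, 48 held the TSS of another transcript, 33 of them of a long noncoding RNA, and 99 held no annotated TSS. Among the 90 regions over 10 kb from a coding TSS, 28 held a TSS of some kind and 44 were wholly intergenic. The same shares over all hotspots without a coding TSS are not given here, so nothing particular to wide regions is read from these counts. Of the 28 with a TSS, 19 had a CpG ratio of at least 0.6 in the central 1200 bp (67.9%, Wilson 95% interval 49.3 to 82.1%). Of the 62 without one, 14 did (22.6%, interval 14.0 to 34.4%), so both kinds held high and low ratios. Over all 90 the share was 36.7%, with a median ratio of 0.437. A region nearest Pcmtd1, 308375 bp from its TSS, is an example with a TSS: it held that of the lincRNA Gm26901, a CpG ratio of 0.668, and hotspots of 1201 and 1244 bp. The region nearest Gm11146, at 270260 bp, lay at a TSS of Mir99ahg, the host transcript of a microRNA cluster, with a ratio of 0.361 and hotspots of 1498 and 2994 bp.

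The regions farthest from any coding TSS lay on chromosome 18. The one nearest Gramd3 was 583317 bp away, that nearest Fzd8 566394 bp, and that nearest Zfp608 557355 bp. Their hotspots were 1424 and 1349, 1316 and 1521, and 1732 and 2018 bp wide, their CpG ratios were 0.253, 0.133 and 0.295, and none held an annotated TSS. Their highest peaks had values of 88 and 66, 59 and 48, and 58 and 55. These are below the median of the highest peaks over all regions in both libraries. The region nearest Nrp1, which encodes a receptor for semaphorins and vascular growth factor, was 139084 bp upstream, with 1498 and 1297 bp, a ratio of 0.152 and peaks of 88 and 81. Of the 25 endothelial genes it was the one that was nearest to a region.

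Short sequence motifs were counted in the 150 bp peaks of the regions, 4044 in replicate 1 and 4190 in replicate 2, on both strands. Shares are means of both libraries, given in the same way for all peaks. The GC box, GGGGCGG, to which SP and KLF factors bind, was in 24.96% ± 0.0247 (SD, n = 2) of the peaks and in 6.73% of all peaks. The ETS motif CCGGAAG was in 6.73% against 2.62%, the CCAAT box, searched as CCAATNNG, in 8.83% against 4.86%, and the cyclic AMP element TGACGTCA in 1.57% against 0.640%. The NRF1 motif was in 0.924% against 0.200%, the YY1 motif AAGATGGC in 1.64% against 0.938%, and the E-box CACGTG in 5.67% against 3.70%. These 7 of 15 motifs were more frequent than in all peaks in both libraries, and most of them contain CpG.

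The other 8 motifs were rarer in the wide regions than in all peaks, although the CArG box turned when the wide hotspots of replicate 1 were taken alone (0.919% against 0.856% of its peaks). AP-1, searched as TGANTCA, was in 2.76% of the peaks against 7.23% of all peaks, the GATA factor motif AGATAAG in 0.947% against 2.97%, MEF2 in 1.19% against 4.10% and TEAD, GGAATGT, in 1.61% against 3.65%. The E-box CAGCTG was in 7.72% against 13.2%, CTCF in 1.07% against 2.33%, the TATA box, TATAAA, in 2.45% against 6.06%, and the CArG box of SRF in 0.753% against 0.862%. Narrower promoter hotspots had still more of the GC box (30.9%), ETS (12.6%) and CCAAT (12.6%) motifs than the wide regions. They also had more of the cyclic AMP element (2.55%), NRF1 (1.34%), YY1 (2.23%) and E-box CACGTG (6.74%) motifs. Against them, AP-1 (2.35%), GATA (0.686%), MEF2 (0.970%) and TEAD (1.43%) were more frequent in the wide regions. The TATA box (2.33%) and CArG box (0.686%) were so too, while the E-box CAGCTG (8.86%) and CTCF (1.46%) were rarer in the wide regions. In the peaks of the distant regions, 265 and 274 in number, GATA (3.90%), MEF2 (4.46%) and AP-1 (5.38%) were more frequent than in the wide regions as a whole. So were TEAD (3.72%), the E-box CAGCTG (12.5%), the TATA box (5.75%), the cyclic AMP element (2.22%) and the CArG box (1.11%). The GC box, ETS, CCAAT, NRF1, CACGTG, CTCF and YY1 motifs were rarer. Against all peaks, AP-1 was still below 7.23%, MEF2 was close to 4.10%, and GATA was above 2.97%. These shares rest on few peaks. A match is a string of letters and not a bound site, and motifs with CpG follow the base composition of the regions.

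Several of the largest differences in width between libraries were differences in where a hotspot was broken. Arrdc3, for an arrestin-related adaptor, had the largest ratio, with 1387 bp in replicate 1 and 4113 bp in replicate 2. In replicate 1 a second wide hotspot of 1350 bp lay next to the first. Smarca2, for an ATPase of the BAF complex, had 1737 and 4108 bp, with a second hotspot of 1501 bp in replicate 1, and the region at Dleu2, 73101 bp from the nearest coding gene Kcnrg, had 1292 and 3020 bp, with a second of 1231 bp. Phf12, for a subunit of a SIN3 deacetylase complex, was split in replicate 2, into 1853 and 1658 bp against 3686 bp. Lmo4 (1288 and 3236 bp), Atxn1 (3280 and 1455 bp), Cpt1a (2726 and 1368 bp) and Cox20 (2441 and 1243 bp) held 1 wide hotspot in each library. The highest peaks in these 8 regions had values of 94 to 120 in replicate 1 and 94 to 116 in replicate 2.

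A further 675 hotspots of replicate 1 and 1047 of replicate 2 were at least 1200 bp wide in that library alone. They overlapped hotspots of the other library with a median widest width of 925 and 931 bp, and 70.2% and 69.5% of them overlapped 2 or more. No hotspot of the other library overlapped 7 of those of replicate 1 and 1 of those of replicate 2. A coding TSS lay inside 78.5% and 82.5% of them, below the 89.2% of the shared regions. That share is counted over the bases of both libraries, and it was 87.8% for a TSS inside the hotspots of both. The hotspots wide in 1 library were also narrower, with medians of 1361 and 1368 bp, which leaves less room for a TSS. Klf10, with 3220 bp in replicate 1, overlapped 3 hotspots of replicate 2, and Tnpo2, with 3078 bp, also 3. In replicate 2, Klf12 with 3509 bp overlapped 6 hotspots of replicate 1, and Pfn1 and Ptch1, with 3081 and 3066 bp, overlapped 4 each. Only Ugt1a1 among these, with a hotspot of 4232 bp and 9 peaks in replicate 1, had no overlapping hotspot in replicate 2.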

How the data were processed

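DNase-seq hotspots and peaks of 2 libraries of newborn mouse heart were analysed as 1 group. The authors called both kinds of region for each replicate alone, from its filtered mm10 alignments, per a text file among those deposited. Which mapper and caller were used is not given in the sources used here. The deposited hotspot lists give a −log10 q-value that stops at 100. The deposited peak lists give a signal value for each 150 bp peak, with no stated normalization. How hotspots were broken or joined by the authors' caller sets every width. Read depth is unknown. Per the labels, the series was superseded by another, not used here.

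Wide hotspots were joined across libraries into connected regions. Coordinates are 1-based on GRCm38.p6, with protein-coding TSSs from GENCODE vM21. Distances run from the region's edge. CpG observed over expected was computed from the genome sequence, and motifs were matched as strings on both strands. The genes named were the nearest genes of the 12 widest and 6 farthest regions, 5 genes with most regions, up to 3 per gene list, and the extremes of width ratio, CpG content and threshold. One gene that this rule names is not reported here. Genes named beyond these, among them Marcks and list members with narrow hotspots, were chosen after their values were seen. The members and lists were chosen with earlier results of these data known. Wilson intervals treat regions as independent, which they are not. Alternatives changed the width threshold, the overlap, the libraries, the TSS set, the distance and the peaks used. The overlap, TSS and CpG steps were tested on simulated data. Python 3.11.15, pandas 2.3.3, numpy 2.4.6 and scipy 1.17.1 were used.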

Additional observations from a re-analysis of the deposited data

How the results depend on the processing

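At a width threshold of 1000 bp there were 2555 regions, of which 85.7% held a coding TSS, 9.35% were over 10 kb from one and 99.6% had the highest q-value. Their medians were 2 peaks, 1322 bp and a CpG ratio of 0.766, with 52.8% of length downstream and 85 list genes nearest to a region. At 1500 bp there were 526 regions, 91.4% with a coding TSS, with medians of 3.5 peaks, 1828 bp and 0.793, with 51.2% downstream and 13 list genes against 35 at 1200 bp. With at least 50% of each hotspot shared, 51.9% of length lay downstream. Without one replicate, the wide hotspots of the other alone numbered 2040 to 2411. Of these 84.8% to 85.9% held a coding TSS, 8.005% to 8.48% were over 10 kb away and 99.5% to 99.8% had the highest q-value. Their median width was 1437 to 1459 bp, their CpG ratio 0.755 to 0.772, their downstream share 53.9% to 54.9%, and 74 to 86 list genes were nearest. With only the 5′ end of each gene 80.8% held a TSS, and with TSSs of any gene type 92.7% did and 3.10% were over 10 kb away. Measured from the centre, the median distance was 150 bp, against 0 from the edge. Equal numbers of wide hotspots from each library gave 1244 regions. The cause of these shifts was not tested. No paired analysis was possible because the libraries form 1 group. With 2 libraries and no depth, an SD says little about other animals, and the peak values cannot be compared in absolute terms.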

Other observations

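Genes for chromatin regulators recurred among the regions. By a pattern of gene symbols chosen after the names of the regions had been seen, 148 coding genes were counted, and 55 of them (37.2%) had a TSS inside a wide shared region, against 6.89% of all coding genes. Of the 134 with a hotspot over a TSS in both libraries the share was 41.0%. Because the pattern was chosen on these data, the share is a description and supports nothing.

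A stretch of chromosome 1 from 88200001 to 88310000 differed between the libraries. Replicate 1 had 33 hotspots there that covered 20924 bp, with 59 peaks of a median value of 27, and replicate 2 had 8 that covered 3736 bp, with 11 peaks of a median value of 38. It holds the shared region near Mroh2a and the wide hotspots of replicate 1 at Ugt1a1 (4232 bp) and near Trpm8 (2690 bp), which had no overlapping hotspot in replicate 2. The cause was not tested.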
